A study of Mus musculus with 6 samples.

Results

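The fragments described here are cut from methionine tRNAs in brain tissue of the inbred mouse strain C57BL/6. A tRNA-derived small RNA (tDR) carries an ID in the table, and each ID is listed with the names of the parent tRNAs that contain it. An ID was taken as elongator methionine where all its parents are Met-CAT tRNAs or their precursors, and as initiator methionine where all are iMet-CAT, with at least 1 mature parent. This gave 14 elongator and 8 initiator IDs, 22 of the 591 in the table. Brains of mice aged 22 months (n = 3 libraries) were compared with brains of mice aged 3 months (n = 3 libraries). All are of the same strain and the labels name no treatment. The labels give no sex or brain region, nor whether each library is 1 animal, so errors and p-values measure the spread between these libraries, which may be technical. The table names tRNAs only, so the tissue label could not be set against brain marker genes.

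Vertebrate cells keep separate methionine tRNAs for starting and for extending a protein. The initiator (iMet) is brought to the start codon by the initiation factor eIF2, while the elongator (Met) is brought to internal methionine codons by the elongation factor eEF1A. Both carry the same anticodon, CAT in DNA letters, and both are charged by the same methionyl-tRNA synthetase, but their bodies differ in sequence, so a fragment can usually be assigned to one or the other. Fragments of tRNAs accumulate when a ribonuclease such as angiogenin cuts the anticodon loop, and other cuts give shorter pieces.

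The parents show which part of the tRNA the fragments can come from. The table prints the sequence of each parent and not that of the fragment, so some of the parents are shown here, 5′ to 3′, in the DNA letters of the deposited table and with the CCA tail. In the elongator parents the capitals mark positions 27 to 55 from the 5′ end, the only stretch of 15 nt or more that is shared by all parents of the largest set of elongator IDs. In iMet-CAT-1-1 they mark positions 1 to 50, which hold every window that matches the largest set of initiator IDs. iMet-CAT-2-1 is not a parent of that set, and its capital marks position 23, the single position at which it differs from iMet-CAT-1-1.
Met-CAT-2-1: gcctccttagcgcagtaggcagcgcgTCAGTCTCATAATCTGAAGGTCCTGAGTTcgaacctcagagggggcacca
Met-CAT-6-1: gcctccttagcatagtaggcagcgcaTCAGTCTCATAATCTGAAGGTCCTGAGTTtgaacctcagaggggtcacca
iMet-CAT-1-1: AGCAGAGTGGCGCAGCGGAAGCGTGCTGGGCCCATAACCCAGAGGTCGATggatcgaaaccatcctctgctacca
iMet-CAT-2-1: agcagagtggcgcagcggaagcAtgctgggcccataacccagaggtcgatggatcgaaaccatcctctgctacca

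The table names 8 mature elongator and 9 mature initiator parents. The 8 elongator names hold 6 different sequences of 76 nt, since Met-CAT-1-1 equals Met-CAT-1-2 and Met-CAT-2-1 equals Met-CAT-2-2. Met-CAT-2-1 and Met-CAT-6-1 are identical at 71 of 76 positions, with no difference inside the capitals. The 9 initiator names hold 3 different sequences of 75 nt, and 7 of the names share 1 sequence. iMet-CAT-2-1 differs from iMet-CAT-1-1 by G23A, and iMet-CAT-3-1 differs from it by G51A. RefSeq (assembly GRCm38.p6) lists 16 nuclear tRNA genes with this anticodon, 11 on chromosome 13, 3 on chromosome 15 and 1 each on chromosomes 3 and 8. Its gene names are not paired with the parent names of the table, so no parent was given a position in the genome, and copies with the same sequence cannot be told apart.

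The 14 elongator IDs fell into 3 sets by their listed parents. A set of 7 IDs (AS-tDR-004475, AS-tDR-004489, AS-tDR-004518, AS-tDR-011676, AS-tDR-010810, AS-tDR-004525 and AS-tDR-013750) is listed under the same 9 parents, which are the 6 mature tRNAs Met-CAT-2-1 to Met-CAT-6-1 and 3 precursors. If a fragment occurs without mismatch in all its listed parents and in no other parent of the table, a fragment of this set lies within positions 27 to 55 and includes positions 41 to 49. That stretch holds the anticodon arm with the anticodon at positions 34 to 36, the variable region and the start of the T arm, and it reaches neither end of the tRNA. The 7 IDs must then overlap one another by at least those 9 positions, so they are not independent measurements. AS-tDR-009925 alone is listed under the same parents without Met-CAT-6-1, and its matching windows lie in positions 6 to 23 or 25 to 56. The other 6 IDs are listed under Met-CAT-1-1 and its copy only, and their windows may lie anywhere in that tRNA.

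The 8 initiator IDs were placed in the same way. A set of 5 IDs (AS-tDR-004535, AS-tDR-010800, AS-tDR-010921, AS-tDR-004494 and AS-tDR-012845) is listed under the iMet-CAT-1 and iMet-CAT-3 tRNAs and 5 precursors, and its windows lie within positions 1 to 50 and include position 23, in the D arm. AS-tDR-006941 is listed under all 9 mature initiator tRNAs and no precursor, and its windows lie within positions 52 to 75 and include positions 61 to 73, so they reach into the CCA tail. AS-tDR-006942 is listed under iMet-CAT-2-1 alone and its windows include position 23. For AS-tDR-009308, listed under the mature initiator tRNAs and 1 precursor, no window of 15 to 50 nt matched exactly its parents. Such a window existed for 84.9% of all 591 IDs, so the condition does not hold for every ID.

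**Figure D1:**
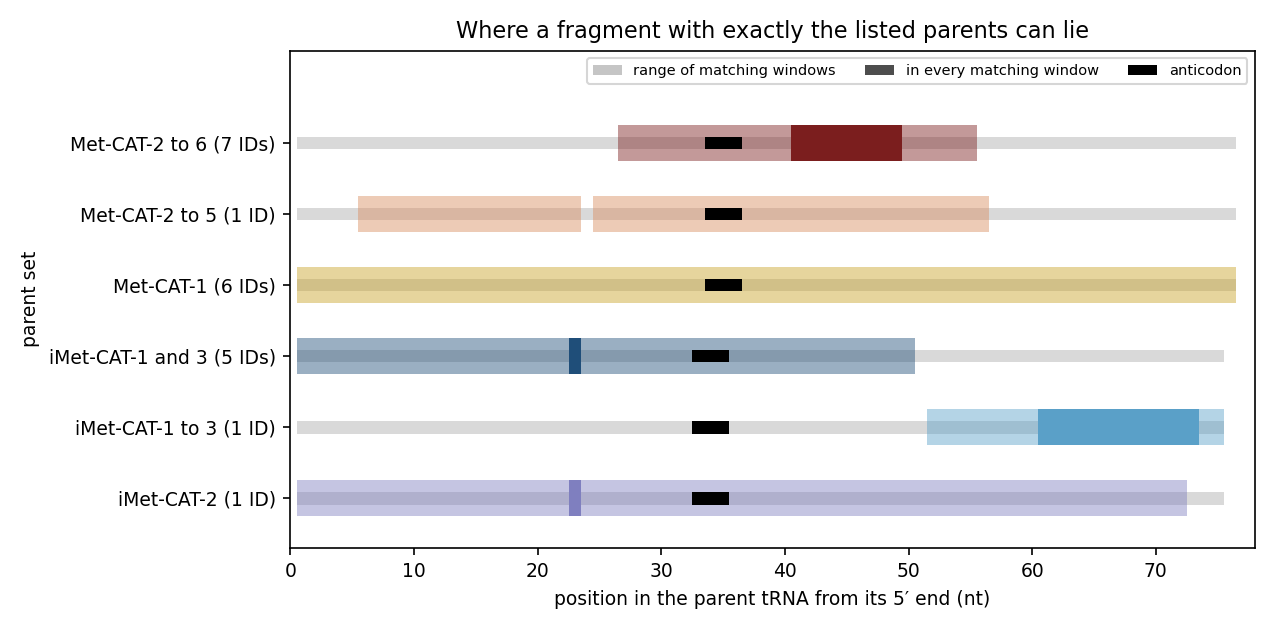
Position in the parent tRNA (x axis, nt from the 5′ end) against parent set (y axis). Grey bars are the parent tRNA, light bars the range of windows that occur in exactly the listed parents, dark bars the positions held by every such window and black bars the anticodon. The matching windows of the 7 IDs of the Met-CAT-2 to 6 set lie in the middle of the tRNA, positions 27 to 55. Those of the 5 IDs of the iMet-CAT-1 and 3 set lie within positions 1 to 50. AS-tDR-009308 has no matching window and is not drawn.

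Listed tags summed to between 71121 and 96130 per library at 22 months and between 44156 and 57425 at 3 months. Values under a minimum are not listed (13, 17 and 17 tags in replicates 1, 2 and 3 at 22 months, 11, 8 and 9 tags at 3 months were the smallest listed) and appear as 0. Levels below are either a share of all listed tags or TMM-scaled CPM, tags relative to a fixed total of listed tags with a correction for composition. Both are relative to the listed tRNA fragments. In whole tissue, fewer cells of a type and less fragment per cell cannot be told apart. The 22 month library of replicate 3 stood apart from the other libraries of its age across the table (chi-square per degree of freedom of 54.8 and 59.7 against them, with 16.9 between those), and it had the lowest CPM of the 6 libraries for each of the 6 IDs of the Met-CAT-2 to 6 set that were listed throughout.

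At 22 months the elongator IDs of the Met-CAT-2 to 6 set were all lower than at 3 months, and none passed the test across all IDs. AS-tDR-004475, the most abundant elongator ID, had 663, 837 and 277 tags in replicates 1, 2 and 3 at 22 months, against 1396, 1158 and 1120 tags in those at 3 months. In TMM-scaled CPM these are 8798, 10068 and 3790 at 22 months, against 21956, 24801 and 22943 at 3 months. Every 22 month library lay below every 3 month library, although the 22 month libraries held more listed tags. The mean level was 7552 ± 3319 CPM at 22 months and 23233 ± 1445 CPM at 3 months (SD, n = 3 each), which is -1.62 on the log2 scale with SE 0.39 (adjusted p = 0.058 by the quasi-likelihood test of edgeR, not past the threshold of 0.05).

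AS-tDR-004489 had 506, 595 and 277 tags at 22 months, against 825, 694 and 746 tags at 3 months. Its level of 5887 ± 1830 CPM at 22 months and 14374 ± 1229 CPM at 3 months (SD, n = 3 each) differed by -1.29 on the log2 scale (SE 0.29; edgeR, adjusted p = 0.0523). AS-tDR-004518 had 295, 401 and 134 tags at 22 months, against 518, 480 and 459 tags at 3 months, which differed by -1.40 on the log2 scale (SE 0.37; edgeR, adjusted p = 0.0691). In both, as in AS-tDR-004475, the ages did not overlap in CPM and replicate 3 was the lowest library at 22 months.

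The less abundant members of the set followed the same order. AS-tDR-011676 had 104, 134 and 29 tags at 22 months, against 235, 174 and 186 tags at 3 months (log2 difference -1.73, SE 0.50). AS-tDR-010810 had 73, 97 and 26 tags at 22 months, against 131, 126 and 106 tags at 3 months (log2 difference -1.47, SE 0.44). AS-tDR-004525 had 45, 98 and 27 tags at 22 months, against 139, 120 and 104 tags at 3 months (log2 difference -1.68, SE 0.43). None of these 3 passed (edgeR, adjusted p = 0.0796, 0.0856 and 0.0623), and each was separated between the ages in CPM. AS-tDR-013750 was the one member of the set that was not listed in every library. It had 0, 19 and 0 tags at 22 months, against 19, 81 and 111 tags at 3 months, so its fitted log2 difference of -4.15 (SE 1.46; edgeR, adjusted p = 0.131) rests on how values under the listing minimum are treated, and it was -2.77 where each zero was replaced by a count 1 under the library's minimum. It was -9.46 without 22 month replicate 2, the one library of that age that lists it, and -5.57 with limma-voom, so its size is not determined by these counts.

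**Figure D2:**
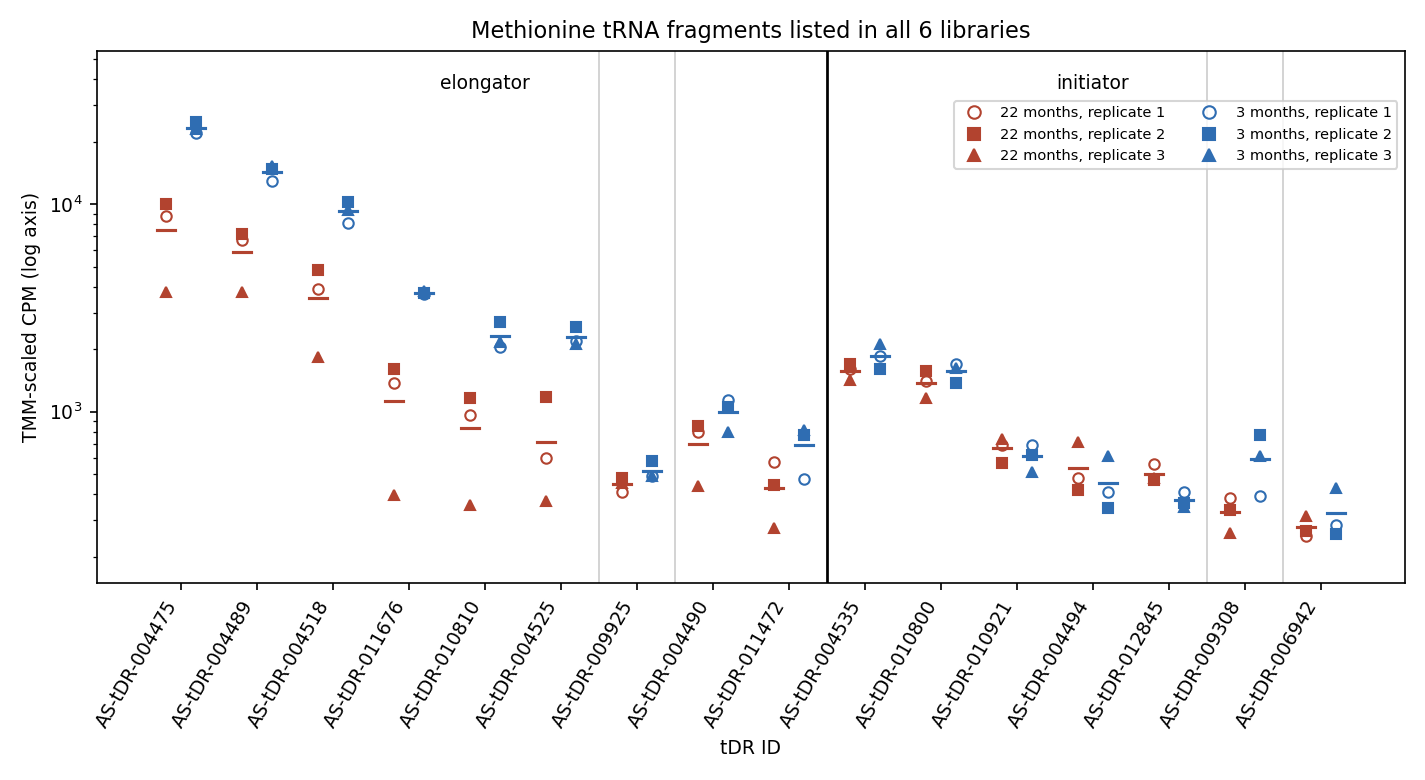
TMM-scaled CPM (y axis, log axis) of the 16 methionine IDs listed in all 6 libraries (x axis), with 22 month libraries in red and 3 month libraries in blue. Points are libraries, marked by replicate number, and short lines are means over 3 libraries. The 6 leftmost elongator IDs are separated between the ages, by log2 differences of -1.73 to -1.29, and most initiator IDs overlap.

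Among the 3 most abundant members of the set, shares of the set's tags differed between the ages by a few percentage points. AS-tDR-004475 took 37.9% ± 1.73 of the set's tags in 22 month libraries and 41.1% ± 1.63 in 3 month libraries (SD, n = 3 each). AS-tDR-004518 took 17.8% ± 0.543 at 22 months and 16.3% ± 0.547 at 3 months. For AS-tDR-004489 the share was 31.1% ± 4.45 at 22 months and 25.4% ± 0.926 at 3 months, with the highest value, 36.0%, in 22 month replicate 3. Over the 6 libraries, the log2 CPM of the other 5 members listed throughout correlated with that of AS-tDR-004475 at Pearson's r of 0.973 to 0.996. This describes 6 points that share their libraries and, within the matching windows, part of their sequence.

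The other elongator IDs listed in all 6 libraries had smaller differences between the ages. AS-tDR-009925, which shares all parents of the large set but Met-CAT-6-1, had 31, 40 and 33 tags at 22 months, against 31, 27 and 24 tags at 3 months. Its level was 448 ± 35.0 CPM at 22 months and 519 ± 51.2 CPM at 3 months (SD, n = 3 each), a difference of -0.21 on the log2 scale (SE 0.27; edgeR, adjusted p = 0.674). Its tags lay between 24 and 40 in the 6 libraries, and the median log2 difference of all 439 IDs tested was -0.16.

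Of the 6 IDs of Met-CAT-1, 3 could be tested. AS-tDR-004490 had 60, 71 and 32 tags at 22 months, against 72, 49 and 39 tags at 3 months, and the difference was -0.51 on the log2 scale (SE 0.32; edgeR, adjusted p = 0.362). AS-tDR-011472 had 43, 37 and 20 tags at 22 months, against 30, 36 and 40 tags at 3 months (log2 difference -0.67, SE 0.39; edgeR, adjusted p = 0.322). In both the ages overlapped in CPM, and 22 month replicate 3 was the lowest of the 6 libraries. Without it the differences were -0.21 for AS-tDR-004490 and -0.36 for AS-tDR-011472. AS-tDR-011470 had 14, 20 and 0 tags at 22 months, against 19, 23 and 15 tags at 3 months (log2 difference -1.35, SE 1.27; edgeR, adjusted p = 0.559), and the difference was -0.70 without 22 month replicate 3 and -0.71 with zeros replaced. The 3 IDs not tested were near the listing minimum where listed at all. AS-tDR-011471 was listed at 0 in the 22 month libraries and had 12, 11 and 0 tags at 3 months. AS-tDR-011118 had 16, 0 and 0 tags at 22 months and 0, 0 and 13 tags at 3 months, and AS-tDR-008550 was listed in 3 month replicate 2 alone, with 8 tags.

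Initiator fragments were of low abundance at both ages, and no initiator ID passed the test in either direction. The 2 most abundant came from the set whose matching windows lie within positions 1 to 50. AS-tDR-004535 had 121, 141 and 104 tags at 22 months, against 118, 75 and 103 tags at 3 months, a level of 1575 ± 139 CPM at 22 months and 1857 ± 252 CPM at 3 months (SD, n = 3 each). Its log2 difference was -0.24 (SE 0.18; edgeR, adjusted p = 0.479). AS-tDR-010800 had 106, 130 and 85 tags at 22 months, against 108, 64 and 79 tags at 3 months (log2 difference -0.18, SE 0.20; edgeR, adjusted p = 0.623). Both overlapped between the ages, and without 22 month replicate 3 the differences were -0.10 for AS-tDR-004535 and -0.0073 for AS-tDR-010800.

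The other 3 IDs of that set had positive log2 differences that did not pass. AS-tDR-012845 had 42, 39 and 35 tags at 22 months, against 26, 17 and 17 tags at 3 months, and it was the one methionine ID whose CPM lay higher in every 22 month library (502 ± 48.3 CPM at 22 months and 374 ± 31.5 CPM at 3 months, SD, n = 3 each; log2 difference 0.42, SE 0.29; edgeR, adjusted p = 0.426). AS-tDR-004494 had 36, 35 and 52 tags at 22 months, against 26, 16 and 30 tags at 3 months (log2 difference 0.24, SE 0.37; -0.0028 when scaled by library size only). AS-tDR-010921 had 52, 47 and 54 tags at 22 months, against 44, 29 and 25 tags at 3 months (log2 difference 0.13, SE 0.24; -0.09 by library size only and -0.07 relative to the listing minimum). In TMM-scaled values these IDs had the opposite sign to AS-tDR-004535 and AS-tDR-010800, which are listed under the same 13 parents.

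The 2 initiator IDs listed under all 3 initiator sequences lay lower at 22 months. AS-tDR-009308 had 29, 28 and 19 tags at 22 months, against 25, 36 and 30 tags at 3 months (log2 difference -0.85, SE 0.37; edgeR, adjusted p = 0.22), and the difference was -0.54 without 3 month replicate 2. AS-tDR-006941, whose matching windows lie in the 3′ part and reach into the CCA tail, had 24, 29 and 0 tags at 22 months, against 24, 23 and 30 tags at 3 months (log2 difference -1.14, SE 1.20; edgeR, adjusted p = 0.616), and the difference was -0.49 without 22 month replicate 3 and -0.70 with zeros replaced. Both were separated between the ages in CPM, with 22 month replicate 3 at the low end, as 20.0% of all IDs tested were separated as lower. The highest 22 month and lowest 3 month values were 385 and 393 CPM for AS-tDR-009308. They were 349 and 377 CPM for AS-tDR-006941. AS-tDR-006942 of iMet-CAT-2-1 had 19, 22 and 23 tags at 22 months, against 18, 12 and 21 tags at 3 months (log2 difference -0.22, SE 0.47; edgeR, adjusted p = 0.795), with no library above 23 tags.

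**Figure D3:**
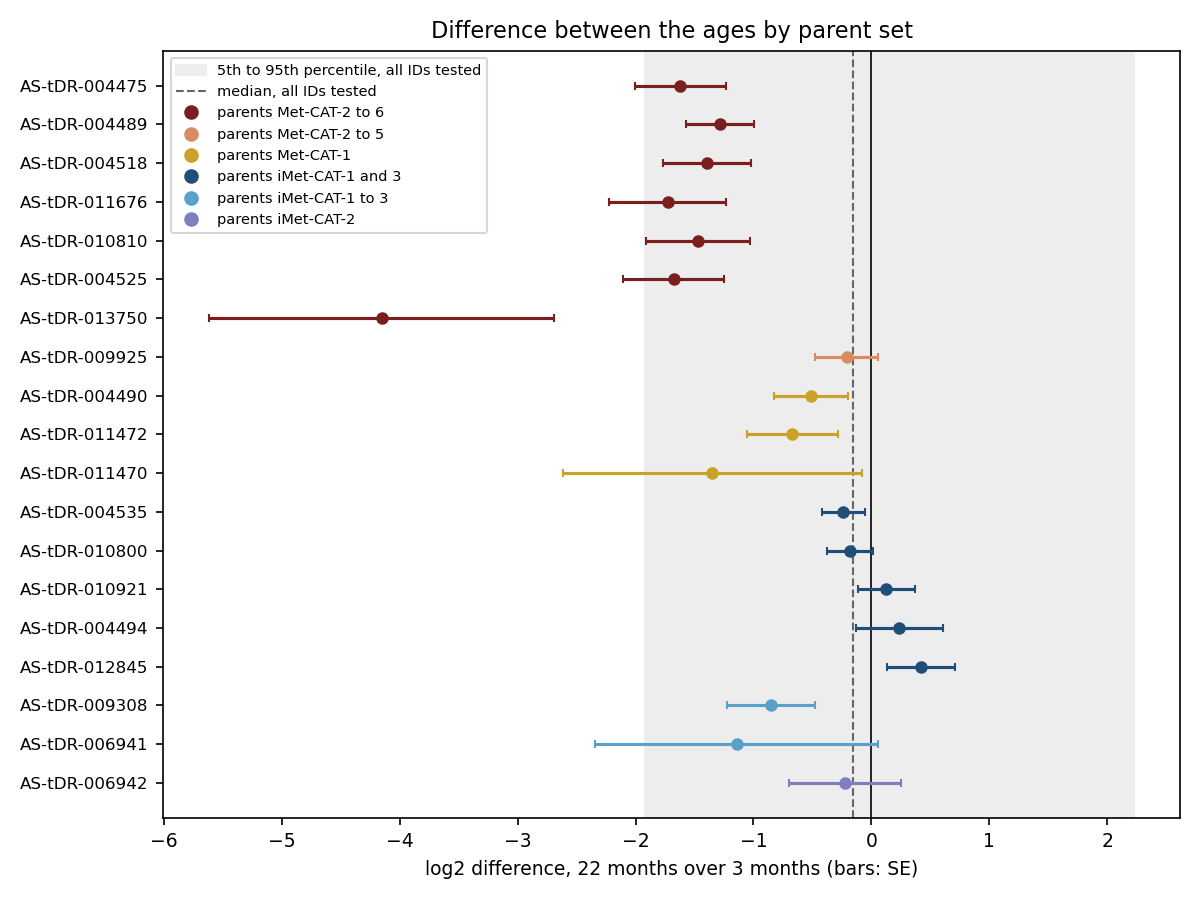
Log2 difference of 22 months over 3 months (x axis, bars are SE) of the 19 methionine IDs tested (y axis), coloured by parent set. The grey band spans the 5th to 95th percentile of all 439 IDs tested and the dashed line is their median, -0.16. The 7 IDs of the Met-CAT-2 to 6 set lie at -1.29 or below, 6 of them inside the band, and the 5 of the iMet-CAT-1 and 3 set between -0.24 and 0.42.

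Counted over the table, 0 of 11 elongator IDs tested and 0 of 8 initiator IDs tested passed the edgeR test at an adjusted p under 0.05 in either direction, and 3 elongator IDs were not tested. Among all 439 IDs tested 1.82% passed as lower and 4.78% as higher. At an unadjusted p under 0.05 there were 7 elongator IDs, which are the 7 of the Met-CAT-2 to 6 set, and 0 initiator IDs, beside 9.79% of all IDs that were lower at that level. In CPM, 9 of the 11 elongator IDs and 2 of the 8 initiator IDs were lower in every 22 month library than in any 3 month library, and 1 initiator ID was higher. Over all IDs tested 20.0% were separated as lower and 19.4% as higher. The 9 elongator IDs were the 7 of the Met-CAT-2 to 6 set, AS-tDR-009925 and AS-tDR-011470. The highest 22 month and lowest 3 month values were 481 and 488 CPM for AS-tDR-009925. They were 241 and 299 CPM for AS-tDR-011470. The median log2 difference was -1.40 over the 11 elongator IDs and -0.20 over the 8 initiator IDs, beside -0.16 over all IDs tested.

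The edgeR result lay close to the threshold, and other tests placed some elongator IDs past it. DESeq2 called 6 of 11 lower, where 8.66% of all IDs were called lower, and limma-voom called 4, where 4.56% were. With the test limited to the 290 IDs listed in all 6 libraries, 6 of 9 elongator IDs were called lower, where 6.9% of all were. The calls were 2 with RLE size factors (3.42% of all IDs lower), 7 with zeros replaced by a value just under the minimum (7.06%), 1 without 22 month replicate 2 (1.0%) and 2 without 22 month replicate 3 (1.42%). Every elongator ID called in these settings was of the Met-CAT-2 to 6 set, and no other elongator ID was called. The IDs of that set share the same listed parents and are not independent measurements. No initiator ID was called in any of these settings. When TMM was replaced by library size only, no ID of the whole table was called in either direction.

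Summed over their IDs, elongator fragments took 2.60%, 2.44% and 1.01% of listed tags in replicates 1, 2 and 3 at 22 months, against 5.97%, 6.62% and 6.71% in those at 3 months. Initiator fragments took 0.603%, 0.490% and 0.439% at 22 months, against 0.677%, 0.603% and 0.759% at 3 months. The elongator sums were well separated between the ages. The initiator sums overlapped, with 22 month replicate 1 just above 3 month replicate 2. The elongator mean was 3.19-fold lower at 22 months (2.02% ± 0.878 in 22 month libraries and 6.43% ± 0.405 in 3 month libraries, SD, n = 3 each) and the initiator mean 1.33-fold lower (0.511% ± 0.0842 at 22 months and 0.680% ± 0.0780 at 3 months). Shares of listed tags carry no correction for composition. On the log2 scale the shares differed by -1.67 (elongator) and -0.41 (initiator). Without 22 month replicate 3 these differences were -1.35 (elongator) and -0.31 (initiator). In TMM-scaled CPM the sums differed by -1.47 (elongator) and -0.19 (initiator). By library size only, the median log2 difference of all IDs tested was -0.35. All of these sums describe the members, which were chosen with earlier results known, and were not tested.

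The balance of the groups within a library does not depend on how libraries are scaled. There were 4.31, 4.99 and 2.30 elongator tags for each initiator tag in replicates 1, 2 and 3 at 22 months, against 8.81, 11.0 and 8.84 at 3 months. On the log2 scale the ratio of elongator to initiator tags was 1.88 ± 0.594 in 22 month libraries and 3.25 ± 0.182 in 3 month libraries (SD, n = 3 each), a change of -1.37 that was -1.03 without 22 month replicate 3. All 3 ratios at 22 months lay below all 3 at 3 months, but elongator tags still outnumbered initiator tags in every library.

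Most elongator tags came from the Met-CAT-2 to 6 set, which made up 91.3% ± 1.41 of them in 22 month libraries and 95.2% ± 0.367 in 3 month libraries (SD, n = 3 each). Its sum was 1.85% ± 0.817 of listed tags in 22 month libraries and 6.12% ± 0.389 in 3 month libraries, a 3.31-fold lower mean. The 22 month values were 2.37%, 2.27% and 0.908% in replicates 1, 2 and 3. The Met-CAT-1 sum was 0.127% ± 0.0631 at 22 months and 0.252% ± 0.0262 at 3 months, 1.98-fold lower. Within a library the Met-CAT-2 to 6 set held 12.7, 17.0 and 14.8 tags for each Met-CAT-1 tag at 22 months, against 24.5, 22.3 and 26.5 at 3 months. For each initiator tag there were 0.310, 0.272 and 0.140 Met-CAT-1 tags at 22 months, against 0.342, 0.467 and 0.319 at 3 months. The change was -0.70 on the log2 scale, with all 22 month libraries lower. At 22 months the log2 ratios were -1.69, -1.88 and -2.84, lowest in replicate 3, against -1.65 to -1.10 at 3 months. With the sums limited to IDs that name no precursor, which leaves the 6 IDs of Met-CAT-1 and 2 initiator IDs, the change of the log2 elongator to initiator ratio was -0.15. Counts for Met-CAT-1 are low, between 52 and 133 tags per library, and whether the sets differ in their change was not tested.

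**Figure D4:**
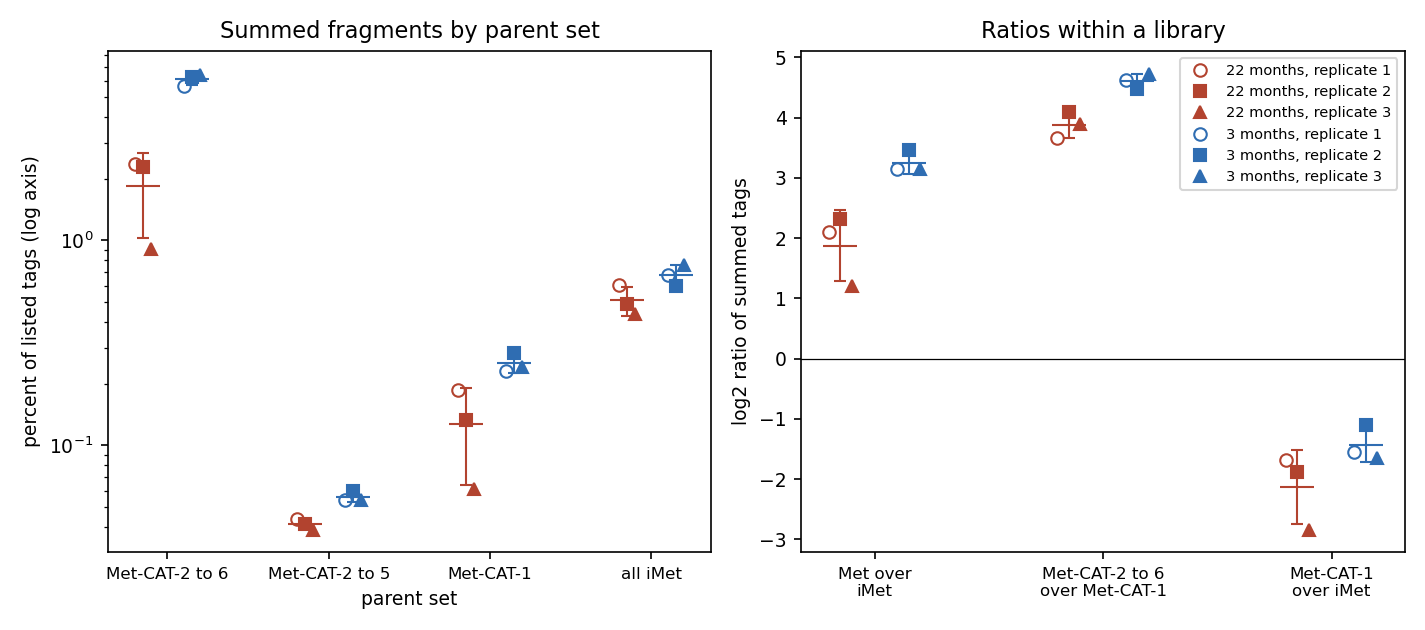
Left, share of listed tags (y axis, percent, log axis) of the summed IDs of each elongator parent set and of all initiator IDs. Right, log2 ratio of summed tags within a library (y axis). Red points are 22 month libraries and blue points 3 month libraries, marked by replicate, with mean and SD (n = 3). The Met-CAT-2 to 6 sums lie between 0.908% and 2.37% at 22 months, all below the 5.68% to 6.41% at 3 months.

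Set beside the other tRNAs, the 11 elongator IDs had the lowest median of 20 lists by amino acid with at least 3 tested IDs, the initiator counted as a list of its own, and the initiator median was the 11th lowest. The next lowest medians were those of threonine at -0.81, proline at -0.81 and arginine at -0.77. All 11 elongator IDs had a negative difference, as did all 18 arginine IDs, 88.9% of glutamine, 87.5% of proline and 86.7% of threonine IDs and 57.4% of all IDs tested. Of the 11 elongator IDs, 7 are those of the Met-CAT-2 to 6 set, which share the same listed parents, and the median rests on them. The 3 tested IDs of Met-CAT-1 had a median of -0.67, and AS-tDR-009925 had a difference of -0.21. The IDs that passed the edgeR test as lower were 5 of valine, 2 of aspartic acid and 1 of glutamic acid, with 0 of methionine. No test between the lists was made. Outside the methionine tRNAs, the 5 IDs whose log2 CPM was most like that of AS-tDR-004475 over the 6 libraries, among 274 IDs listed in all of them, were AS-tDR-011670 of Glu-CTC (Pearson's r of 0.993), AS-tDR-008900 of an Arg-ACG precursor (0.990), AS-tDR-011790 of Val-AAC (0.973), AS-tDR-008981 of Asp-GTC parents (0.971) and AS-tDR-011568 of a Val-TAC precursor (0.970). AS-tDR-011670 had 147, 194 and 71 tags at 22 months, against 288, 195 and 231 tags at 3 months (log2 difference -1.35; edgeR, adjusted p = 0.058). All 5 were lowest in CPM in 22 month replicate 3, as AS-tDR-004475 was.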

How the data were processed

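Small RNA was sequenced as single reads on an Illumina NextSeq from Trizol-extracted total RNA, per the labels' protocols. The submitters' processing notes name FastQC, cutadapt, Novoalign and mm10. How tags were counted, and above which value they were listed, is not stated in these sources. Per the file headers the deposited values are tag counts, and they are whole numbers with differing totals. They repeat on each of 3257 lines of ID and parent, so each ID was counted once. Columns named Age and WT with numbers 1 to 3 were read as 22 and 3 months, replicates 1 to 3.

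All 591 IDs entered edgeR 4.0.16 under R 4.3.3 (filterByExpr at a minimum of 10 tags, quasi-likelihood test, no replicate term, Benjamini-Hochberg adjustment over the 439 IDs kept, threshold 0.05). TMM factors were computed on the 439 IDs kept, with library sizes from all listed tags. The standard error is the log2 difference over the square root of F. DESeq2 1.42.0 and limma-voom (limma 3.58.1) were alternatives. The test was tried on simulated data. Parent sequences were searched for windows of 15 to 50 nt found in exactly the listed parents, with U read as T. The Met-CAT-1 sequence is not reported here. Named members are those listed in all libraries and, of the others, the most abundant of each group (AS-tDR-013750 and AS-tDR-006941). The remaining 4 members, all of Met-CAT-1, were named after their values were seen. Members and lists were chosen with earlier results of these data known. Replicate numbers were not used as pairs, since the labels do not say that they pair animals. Listed totals between 44156 and 96130 tags limit precision, and full library totals are not used here.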

Additional observations from a re-analysis of the deposited data

How the results depend on the processing

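The number of elongator IDs called lower, 0 with the edgeR test, was 2 with RLE size factors, 6 with DESeq2, 4 with limma-voom, 6 among IDs listed in all libraries, 7 with zeros replaced by a count 1 under the library's minimum, and 0 to 2 with 1 library left out (1 without 22 month replicate 2, 2 without 22 month replicate 3). It stayed at 0 with library size only, scaling to the smallest listed count, no filter and the replicate block, where 0 IDs of the whole table were called. It was also 0 with upper-quartile scaling, where 2 of all 439 IDs were called. Without 22 month replicate 1, or without 3 month replicate 1, 2 or 3, 0 IDs of the whole table were called. The counts of 0 in these settings therefore do not set the methionine IDs apart from the rest. All elongator IDs called were of the Met-CAT-2 to 6 set, and in every setting 0 initiator IDs were called. The median of the elongator IDs was -1.40 and lay between -1.79 and -1.01 with 1 library left out. Scaling moved the median of all IDs from -0.16 to -0.35 (library size only) and -0.31 (smallest listed count), and the elongator median relative to it was -1.24 in the edgeR test, -1.26 and -1.24. The initiator median, -0.20, was -0.43 with library size only, -0.29 with upper-quartile scaling, -0.38 with scaling to the smallest listed count, -0.11 among IDs listed in all libraries and -0.23 to -0.055 with 1 library left out. With IDs that name no precursor, the log2 difference of the initiator sum was -0.92, against -0.41, and the change of the log2 ratio -0.15, against -1.37. Signs turned for AS-tDR-010921 (-0.092 with library size only, -0.068 with the smallest listed count), AS-tDR-004494 (-0.0028 with library size only) and AS-tDR-006942 (0.035 without 3 month replicate 3, and down to -0.30 with another library left out). The cause was not tested, except that the last sums leave out the Met-CAT-2 to 6 set by construction. Of 301 values of single IDs under alternatives, 269 kept direction and side of the threshold and 28 kept direction and passed it. With the replicate block the elongator median was -1.61 and no call was made. Deviations from the mean of each age correlated at -0.555, 0.135 and -0.377 between same-numbered libraries. The highest correlation, 0.526, was that of 22 month replicate 1 with 3 month replicate 3. With 3 libraries per age, whose deviations sum to 0, this cannot show whether same-numbered libraries are paired. IDs near the listing minimum, most of the initiator and Met-CAT-1 IDs, are limited by depth.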

Other observations

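A further ID, AS-tDR-008249, is listed under 4 initiator precursors and no mature tRNA and so was not a member. It had 25, 0 and 0 tags in replicates 1, 2 and 3 at 22 months, against 23, 13 and 22 tags in those at 3 months. No window of 15 to 50 nt matched exactly its 4 parents.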
